A study of Mus musculus with 15 samples.

Results

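The genes described here are 9 identity genes of the dentate granule cell, *Prox1*, *Calb1*, *C1ql2*, *Tdo2*, *Dsp*, *Stxbp6*, *Nrgn*, *Actn2* and *Dock10*, taken by their symbols from count files that hold 32657 features each, of which 23117 had a count in at least 1 library. All 9 passed the filter on low counts in every comparison, and their lowest count in any library was 80, for *Actn2*. RNA came from the dentate gyrus of mice aged 8-12 weeks that carried the Drd3-Cre KI198 driver and the Rosa26-fsTRAP reporter, which tags ribosomes with EGFP-L10a in cells where Cre was active. The cKO mice were in addition Htr4-Floxed, so that exon 5 of the serotonin receptor gene *Htr4* was removed in the same cells; the WT mice kept an intact gene. Translating ribosome affinity purification (TRAP) gave RNA bound to tagged ribosomes (IP) from the ventral dentate gyrus (vDG), and the homogenate before purification gave whole tissue RNA (input) from the vDG and, without a matching IP, from the dorsal dentate gyrus (dDG). Each of the 3 kinds of sample had 3 WT and 2 cKO libraries, 15 in all.

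As a model these samples have limits that the records state. The driver labels granule cells of the granule cell layer and also mossy cells of the hilus, so the IP is not of granule cells alone. Each library came from pooled mice, 3 per IP and 2 per input by the sample records. For the inputs these records give cortex as the tissue, but their titles give the dentate gyrus; the study's methods describe 1 male and 1 female per replicate. The p-values therefore measure the spread between these pools. The region labels were checked with 2 regional marker genes. *Lct*, high in the dorsal part, had 128 to 181 CPM (counts scaled to library size) in the dDG inputs and 30.0 to 87.1 CPM in the vDG libraries, and *Trhr* had at most 0.718 CPM in the dDG and 14.7 to 31.5 CPM in the vDG.

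Granule cells are the principal neurons of the dentate gyrus. They receive input from the entorhinal cortex and send mossy fibres to hilar mossy cells and to CA3 pyramidal cells. They are packed in a dense layer and make up most of its neurons, so granule cell transcripts are abundant in whole tissue as well as in tagged ribosomes. The genes cover several functions. *Prox1* encodes the homeobox transcription factor that sets granule cell over pyramidal cell fate. *Calb1* encodes the calcium buffer calbindin and *Nrgn* the postsynaptic calmodulin-binding protein neurogranin. *C1ql2* encodes a secreted protein of mossy fibre synapses and *Stxbp6* the SNARE-binding protein amisyn. *Dsp* encodes desmoplakin, which anchors intermediate filaments at desmosomes, and *Actn2* the actin crosslinker alpha-actinin-2. *Tdo2* encodes tryptophan dioxygenase, which opens the kynurenine pathway of tryptophan breakdown, and *Dock10* an activator of the small GTPases Cdc42 and Rac.

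On the mouse genome mm10 with the GENCODE M21 annotation all 9 are protein-coding genes, and the counts are of reads in their exons. *Prox1* lies at chr1:190118035-190170714 on the minus strand, *C1ql2* at chr1:120340582-120343174 on the plus strand and *Dock10* at chr1:80501073-80758527 on the minus strand. *Tdo2* lies at chr3:81957090-81976202 (minus) and *Calb1* at chr4:15881264-15908064 (plus). *Nrgn* is at chr9:37544492-37552904 (minus), *Stxbp6* at chr12:44852484-45074709 (minus), *Actn2* at chr13:12269426-12340760 (minus) and *Dsp* at chr13:38151294-38198577 (plus). Among the genes of the count files that GENCODE holds under the same symbol, no other overlaps them. Rows without such a symbol could not be checked. In GENCODE, *Prox1* overlaps 2 further genes, *Dsp* 1, *Stxbp6* 2 and *Dock10* 3; the library kit named in the records does not mark strand, so reads of such a partner could not be told apart from those of the gene.

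The bases before the transcription start are shown for *Prox1*, *C1ql2*, *Dsp* and *Dock10*, because these were called in the same direction in both genotypes either between IP and input or between vDG and dDG. Each stretch is 250 bases from RefSeq (GRCm38.p6), read 5′ to 3′ on the strand of the gene and ending at the base before the RefSeq start. For *Prox1* and *Dock10* the RefSeq start lies upstream of the GENCODE start given above. Capitals mark CAGATG or its reverse complement CATCTG, an E-box of the kind that neuronal bHLH factors of the Neurod family bind. The second motif searched was the E-box CAGCTG, which reads the same on both strands; the motifs cannot share a match. *Prox1* is shown at chr1:190170828-190171077, *C1ql2* at chr1:120340332-120340581, *Dsp* at chr13:38151044-38151293 and *Dock10* at chr1:80758554-80758803.
Prox1: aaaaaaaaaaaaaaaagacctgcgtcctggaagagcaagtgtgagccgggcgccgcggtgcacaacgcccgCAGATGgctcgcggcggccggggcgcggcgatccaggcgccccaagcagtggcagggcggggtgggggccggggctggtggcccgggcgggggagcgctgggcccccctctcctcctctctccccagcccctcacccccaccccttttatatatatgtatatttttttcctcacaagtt
C1ql2: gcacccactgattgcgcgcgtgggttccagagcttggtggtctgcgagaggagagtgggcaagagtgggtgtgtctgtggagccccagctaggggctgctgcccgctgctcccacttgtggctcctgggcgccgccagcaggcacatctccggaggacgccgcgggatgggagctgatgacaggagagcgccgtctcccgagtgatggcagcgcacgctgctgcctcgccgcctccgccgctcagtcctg
Dsp: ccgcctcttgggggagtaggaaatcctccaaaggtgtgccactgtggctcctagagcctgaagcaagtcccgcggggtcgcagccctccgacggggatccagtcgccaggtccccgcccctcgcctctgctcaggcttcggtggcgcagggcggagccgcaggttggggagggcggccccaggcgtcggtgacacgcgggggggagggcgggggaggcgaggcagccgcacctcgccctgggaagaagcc
Dock10: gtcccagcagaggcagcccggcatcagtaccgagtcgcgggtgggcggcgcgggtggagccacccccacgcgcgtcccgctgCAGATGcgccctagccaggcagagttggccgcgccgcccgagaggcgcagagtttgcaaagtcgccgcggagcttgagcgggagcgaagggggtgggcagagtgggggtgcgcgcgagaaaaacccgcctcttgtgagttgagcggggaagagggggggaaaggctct
In the windows shown, *Prox1* and *Dock10* each held 1 CAGATG, and *C1ql2* and *Dsp* held none. The table has 2 starts for *Prox1* and for *Dock10* and 1 for each other gene; the most upstream is shown, and the second window of *Prox1* held neither motif, while that of *Dock10* held 1 of each. The promoter table used here matched 8 of the 9 genes by symbol (*Calb1* was not analysed), and the same search of the 250 bases found 1 CAGATG in *Nrgn* and none in *Tdo2*, *Stxbp6* and *Actn2*. CAGCTG was in none of the 8 most upstream windows. Of all 32851 RefSeq windows of this length, 14.4% held CAGATG and 13.0% held CAGCTG. *Stxbp6*, called lower in vDG in both genotypes, is not shown because 226 of its 250 bases lie inside the GENCODE gene.

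Between 19039295 and 30451430 counts per library fell on genes, and 24.7% to 37.8% of counted reads fell outside genes, could not be given to a single gene or did not map uniquely, and the genes with the fewest counts were *Actn2*, with 80 to 315 per library, and *Tdo2*, with 325 to 600. The counts sum all exons of *Htr4* and therefore do not check the removal of exon 5: *Htr4* had 26.7 and 29.8 CPM in the cKO IP against 13.6 to 16.0 CPM in WT, 27.5 and 29.3 CPM in the cKO vDG input against 13.8 to 18.6 CPM, and 47.1 and 51.3 CPM in the cKO dDG input against 24.9 to 33.9 CPM. CPM were adjusted by the trimmed mean of M values (TMM) over the 15 libraries. Fold changes come from edgeR's quasi-likelihood test with the libraries of the comparison alone, given as log2 values with their standard error (SE), and the false discovery rate (FDR) is the Benjamini-Hochberg adjusted p over all genes tested. A gene is called where the FDR is under 0.05, or under 0.1 for the IP of the 2 genotypes. Because the scale is set anew for each comparison, a fitted fold can differ a little from the ratio of the printed CPM.

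The 9 genes together took 0.256% to 0.453% of the counts on genes. This share was 0.374% to 0.453% in the dDG inputs, 0.304% to 0.347% in the vDG IP libraries and 0.256% to 0.293% in the vDG inputs, and the 3 ranges do not overlap. *Nrgn* alone made up 23.5% to 40.4% of it. Per kilobase of exon, *Nrgn* had the highest level in each of the 6 groups, from 572 ± 145 CPM per kb (SD, n = 3) in the WT vDG input to 1040 ± 193 (SD, n = 3) in the WT dDG input. *Stxbp6*, *Prox1*, *Calb1* and *C1ql2* followed in this order in every group. *Actn2* was last everywhere, at 0.965 ± 0.0586 CPM per kb (SD, n = 2) in the cKO dDG input and 2.68 ± 0.623 (SD, n = 3) in the WT IP, with *Tdo2* above it at 3.53 to 6.04 CPM per kb in group means. Neighbours in this order were separate in all libraries of a group with 4 exceptions, where their ranges overlapped: *Stxbp6* and *Prox1* in the WT IP, *Dock10* and *Dsp* in the WT vDG input, *Dsp* and *Tdo2* in the cKO vDG input, and *Dsp* and *Dock10* in the cKO dDG input. *Dsp* stood above *Dock10* in both dDG inputs and below it in the 4 vDG groups.

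**Figure D1:**
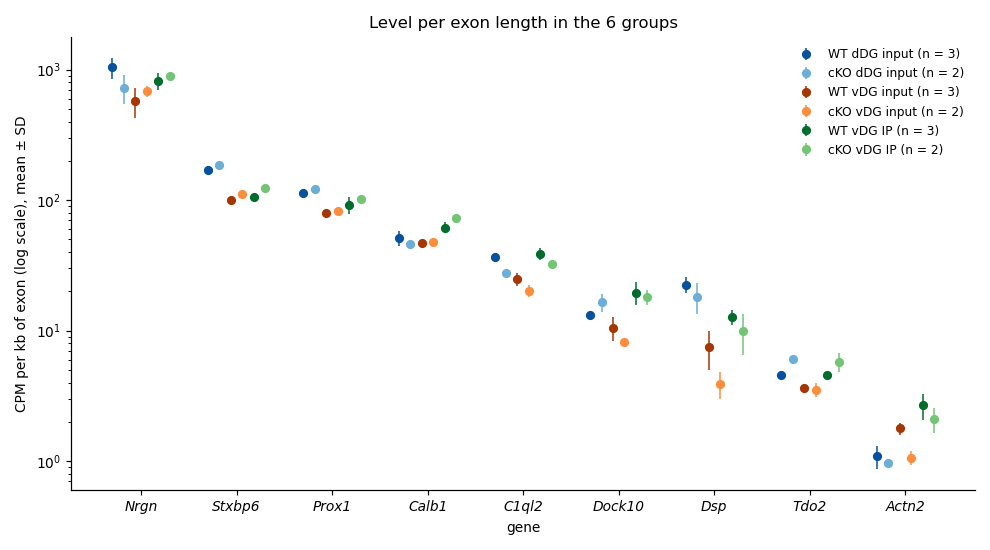
Level of each gene per kilobase of exon (CPM per kb, log axis) in the 6 groups; points are group means and bars the SD over 3 WT or 2 cKO libraries. *Nrgn* is highest and *Actn2* lowest in each group, and *Dsp* changes its place between dDG and vDG.

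The genes varied unequally over the 15 libraries. *Dsp* had the widest span, 7.49-fold between its lowest library (31.5 CPM, cKO vDG input 1) and its highest (236 CPM, WT dDG input 1), followed by *Actn2* at 3.75-fold and *Dock10* at 2.95-fold. *Prox1* and *Calb1* spanned 1.67-fold each. Within groups the coefficient of variation was 24.5% for *Dsp*, 18.8% for *Nrgn*, 17.6% for *Actn2* and 15.6% for *Dock10*, and 3.88% to 9.20% for the other 5, lowest for *Stxbp6*. One library stood apart for *Dsp*: WT vDG input 3 had 44.5 CPM against 83.9 and 87.1 CPM in the other WT vDG inputs.

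**Figure D2:**
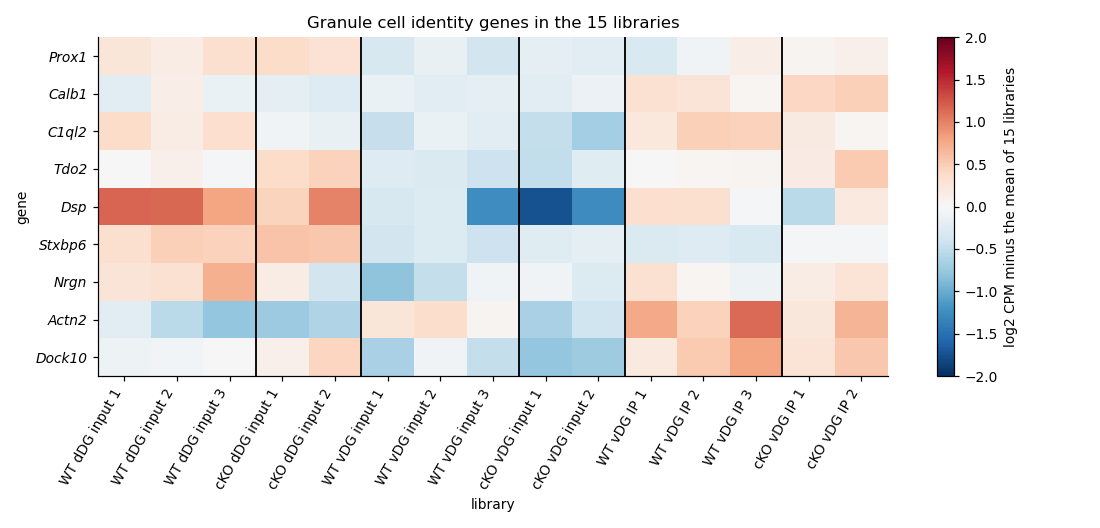
Log2 CPM of each gene minus its mean over the 15 libraries, with libraries in columns and black lines between the 6 groups; red is above and blue below the gene's mean. *Dsp* is red in the dDG inputs and darkest blue in both cKO vDG inputs and in WT vDG input 3, and *Actn2* is red in the IP libraries.

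The comparison of IP with input asks which transcripts were on tagged ribosomes more than in the whole vDG. In WT, 3 of the 9 genes were higher in the IP, *C1ql2*, *Dsp* and *Dock10*, and none was lower; in cKO 8 of the 9 were higher, all but *Stxbp6*. Of all genes tested in WT, 7.73% were called higher and 16.1% lower in the IP, and in cKO 11.8% and 15.7%. The median log2 fold change of the 9 genes was 0.46 in WT and 0.65 in cKO, against medians over all genes tested of 0.00 and -0.03. All 9 fitted fold changes were above 0 in both genotypes.

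**Figure D3:**
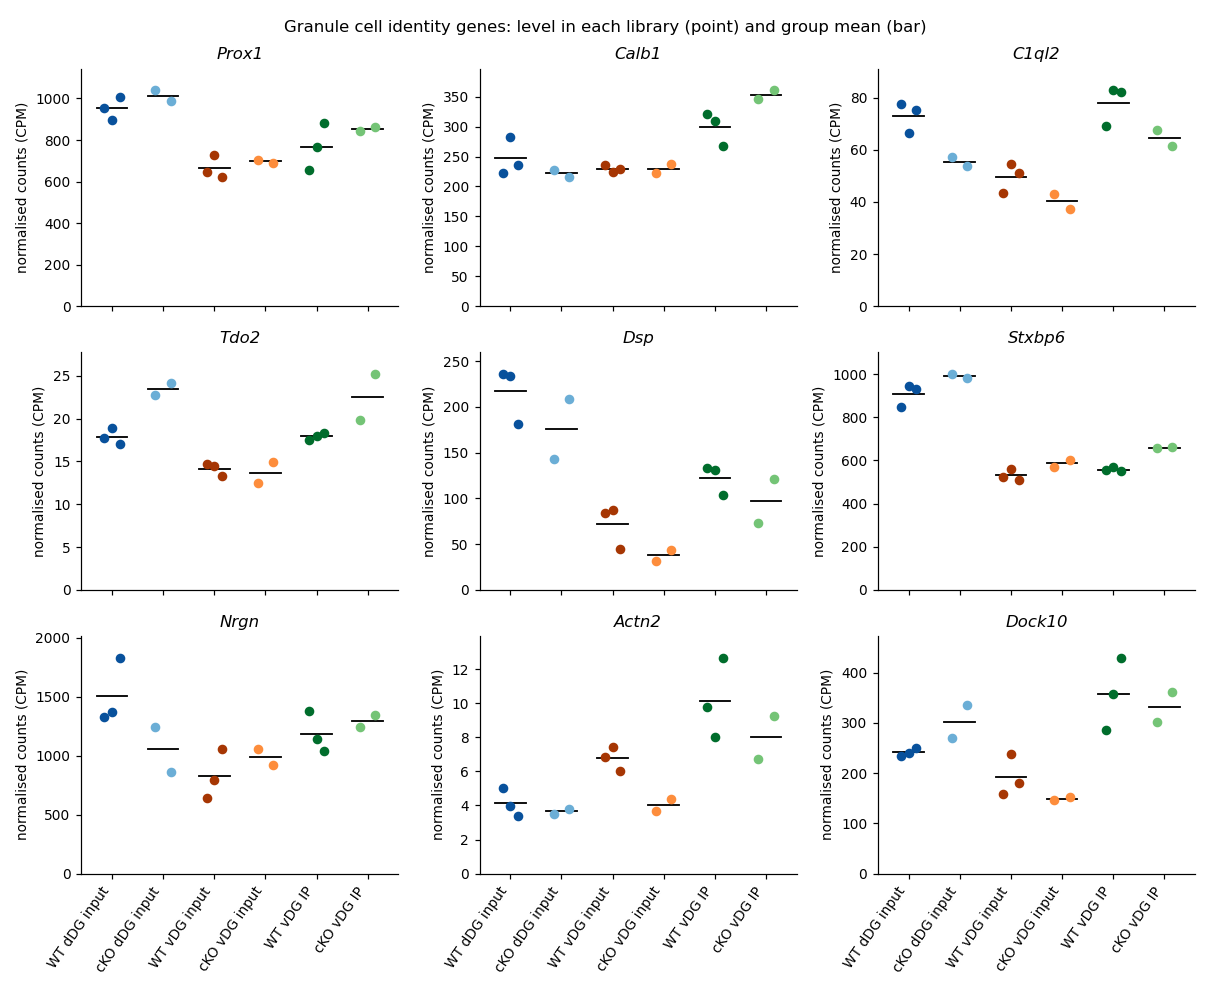
CPM of each gene in every library (points) of the 6 groups, with the group mean as a bar; each vertical axis starts at 0 and has its own scale. The IP points (green) of *Dock10* lie above all vDG input points, and the dDG points (blue) of *Prox1*, *Dsp* and *Stxbp6* lie above all vDG input points (brown and orange).

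*Dock10* was higher in the IP with the lowest FDR of the 9 in both genotypes. It had 285, 357 and 429.8 CPM in the WT IP and 159, 238 and 180.1 CPM in the WT vDG input. In cKO it had 301 and 361 CPM in the IP and 145 and 152 CPM in the input. The IP libraries were all above the input libraries of their genotype. The log2 fold change was 0.83 (SE 0.16, FDR = 0.00201) in WT and 1.13 (SE 0.11, FDR = 1.57e-05) in cKO.

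*C1ql2* had 68.9, 82.8 and 82.1 CPM in the WT IP and 43.3, 54.4 and 51.0 CPM in the input, and 67.4 and 61.5 CPM against 43.2 and 37.2 CPM in cKO. Every IP library was above every input library of either genotype. The gene was 1.51-fold higher in WT (log2 0.59, SE 0.13, FDR = 0.00438) and 1.57-fold higher in cKO (log2 0.65, SE 0.13, FDR = 0.00263).

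For *Dsp* the WT IP libraries had 133, 131 and 104 CPM and the inputs 83.9, 87.1 and 44.5 CPM. The cKO IP libraries had 72.8 and 121 CPM and the inputs 31.5 and 44.1 CPM. IP and input did not overlap within a genotype, but the lower cKO IP library was below 2 of the WT inputs. The log2 fold change was 0.71 (SE 0.21, FDR = 0.0241) in WT and 1.33 (SE 0.21, FDR = 0.000740) in cKO. In WT the call rested on single libraries, since the FDR was 0.0898 without IP replicate 2 and 0.0611 without input replicate 3.

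*Calb1*, *Tdo2*, *Actn2* and *Nrgn* were called in cKO only. *Calb1* had 346 and 361 CPM in the cKO IP against 222 and 238 CPM in the input (log2 0.59, SE 0.10, FDR = 0.000823), and 320.5, 309.7 and 267 CPM against 235, 224 and 229 CPM in WT (log2 0.32, SE 0.12, FDR = 0.067). The IP libraries of *Calb1* were thus above the inputs in WT as well. *Actn2*, at low level, had 6.75 and 9.25 CPM against 3.69 and 4.38 CPM in cKO (log2 0.96, SE 0.27, FDR = 0.0199) and 9.77, 8.01 and 12.7 CPM against 6.85, 7.43 and 6.04 CPM in WT (log2 0.52, SE 0.20, FDR = 0.0733). *Tdo2* had 19.8 and 25.2 CPM against 12.5 and 14.9 CPM in cKO (log2 0.69, SE 0.18, FDR = 0.0131). Its WT libraries had 17.5 to 18.3 CPM in the IP and 13.3 to 14.7 CPM in the input, also without overlap (log2 0.28, SE 0.15, FDR = 0.182). *Nrgn* had 1240.5 and 1344 CPM against 1061 and 921 CPM in cKO (log2 0.36, SE 0.10, FDR = 0.0194); in WT the groups met, with 1037 CPM in the lowest IP library and 1057 CPM in the highest input (log2 0.46, SE 0.17, FDR = 0.0644).

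*Prox1* and *Stxbp6* had the smallest fitted changes. *Prox1* had 841 and 865 CPM in the cKO IP and 704 and 690.0 CPM in the input (log2 0.26, SE 0.09, FDR = 0.0451), and its WT groups overlapped at 655 to 882 and 623 to 727 CPM (log2 0.14, SE 0.12, FDR = 0.442). *Stxbp6* had 554, 568 and 550.3 CPM in the WT IP and 523, 561 and 509 CPM in the input, a log2 fold change of 0.01 (SE 0.11, FDR = 0.965). In cKO its libraries did not overlap, at 656 and 660.0 CPM against 572 and 599.8 CPM, and the log2 fold change was 0.14 (SE 0.09, FDR = 0.281). *Stxbp6* thus had the smallest fitted fold of the 9 in both genotypes.

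In all, 6 of the 9 genes had every WT IP library above every WT input, where 16.3% of all genes tested did, and all 9 did so in cKO, where 30.1% did. The difference in calls between the genotypes was not itself a call: the test of the interaction of genotype and fraction called 0 of the 9 genes and 0% of all genes tested (edgeR, 16093 genes; 497 genes and none of the 9 had an unadjusted p under 0.05). With 1 library left out it still called no gene, with 361 to 1001 at such a p, the most without WT IP replicate 3 (1001) and cKO IP replicate 2 (954). The fitted interaction was largest for *Dsp* (log2 0.65, SE 0.35) and *Actn2* (log2 0.47, SE 0.32). In WT, leaving out 1 library added calls: *Actn2* without IP replicate 2 (FDR = 0.0418), *Calb1* and *Nrgn* without IP replicate 3 (FDR = 0.0135 and 0.0137), and *Nrgn* without input replicate 3 (FDR = 0.0139). In cKO it ended the calls of 4 genes. *Prox1* lost its call without any one of the 4 libraries (FDR = 0.0881 to 0.177). *Actn2* lost it without IP replicate 2, input replicate 1 or input replicate 2 (FDR = 0.0692, 0.130 and 0.0643), *Nrgn* without IP replicate 2 or input replicate 2 (FDR = 0.0900 and 0.119), and *Tdo2* without input replicate 1 (FDR = 0.110). *Calb1*, *C1ql2*, *Dsp* and *Dock10* were called in each of the 4 cKO fits.

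Markers of most other cell types were called lower in the IP, and those of CA pyramidal cells mostly were not. All 6 astrocyte markers and all 6 microglia markers were called lower in both genotypes, and the summed astrocyte level was 87.9 to 119 CPM in the WT IP against 623 to 711 CPM in the input. Of 10 interneuron markers 8 were called lower in WT and 7 in cKO, and their summed level was 181 to 218 CPM in the WT IP against 475 to 558 CPM in the input. In cKO these sums were 69.7 to 82.0 CPM against 541 to 579 CPM for astrocytes and 134 to 146 CPM against 406 to 419 CPM for interneurons. Of 7 oligodendrocyte markers 6 were lower in each genotype. The 6 mossy cell markers, 5 of which were tested with 1 lower in WT and none called in cKO, summed to 102 to 120 CPM in the WT IP and 102 to 130.4 CPM in the input. Of the tested markers of progenitors and immature neurons 2 of 3 were lower in each genotype, as were 2 of 3 of the choroid plexus, and of 5 vascular markers 2 in WT and 1 in cKO. Of 8 CA pyramidal cell markers 1 was called higher in WT (*Rgs14*, log2 0.72, FDR = 0.00443). Called lower in WT were 2, *Mpped1* (log2 -2.64, FDR = 4.81e-06) and *Spink8* (log2 -1.61, FDR = 0.0483), both at low level. In cKO none was called higher and 1 lower, *Mpped1* (log2 -2.21, FDR = 7.74e-05). The sum of the 8 markers was 110.1 to 121 CPM in the WT IP against 91.1 to 98.4 CPM in the input, without overlap. In cKO it was 94.7 to 114 CPM against 106 to 107 CPM. The markers with the highest mean level in WT were *Bok* (54.3 CPM in the IP, 42.3 CPM in the input) and *Rgs14* (27.8 and 16.2 CPM). In bulk RNA, fewer cells of a type and less RNA per cell cannot be told apart. Not all granule cell genes were called higher in the IP, and the part of these markers in the change of those that were was not tested. Scaling by library size alone moved the median over all genes to -0.13 in WT and -0.20 in cKO; under it the fold change of *Stxbp6* turned negative in both genotypes (log2 -0.12 and -0.03), and *Dsp* in WT (FDR = 0.066) and *Prox1* and *Nrgn* in cKO (FDR = 0.498 and 0.195) were no longer called.

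Of 13 other granule cell genes, 2 were called higher in the IP in each genotype, *Plk5* and the glutamate receptor gene *Grm2*, and 1 lower, the transcription factor gene *Glis3*. *Plk5* had a log2 fold change of 0.97 (SE 0.19) in WT and 0.88 (SE 0.15) in cKO, and *Glis3* of -1.02 (SE 0.13) and -0.87 (SE 0.11). The median of the 13 was 0.16 in WT and 0.17 in cKO. Among 55 tested partner genes, chosen for a molecular link to one of the 9, 12 were higher and 4 lower in WT, and 20 higher and 4 lower in cKO, with medians of 0.15 and 0.25. For *Calb1* and *Nrgn*, 4 of 10 genes of calcium and calmodulin signalling were higher in WT and 5 in cKO, among them calmodulin *Calm2* (log2 0.52 in both) and the calcineurin subunit *Ppp3ca* (log2 0.52 and 0.60). For *Actn2*, 3 of 6 tested alpha-actinins and synaptic partners were higher in WT and 5 of 6 in cKO. These included *Actn1* (log2 0.68 and 0.85) and the NMDA receptor subunit *Grin1* (log2 0.73 and 0.99). The relatives of *Dock10*, *Dock9* (log2 0.56 and 0.61) and *Dock11* (log2 0.40 and 0.55), were called higher in both. *C1ql1*, the family member of *C1ql2* with the lowest level (0.308 CPM in the WT IP, 1.80 CPM in the input), was called lower in both (log2 -2.60, SE 0.56, and -3.54, SE 0.85). None of the 5 tested genes of tryptophan metabolism passed the test in either genotype.

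The inputs of vDG and dDG show how the genes differ along the dorsoventral axis. In WT, *Prox1*, *C1ql2*, *Dsp*, *Stxbp6* and *Nrgn* were lower in the vDG and *Actn2* was higher; in cKO, *Prox1*, *C1ql2*, *Tdo2*, *Dsp*, *Stxbp6* and *Dock10* were lower and none was higher. *Prox1*, *C1ql2*, *Dsp* and *Stxbp6* were therefore called lower in both. The background in WT was 9.26% of genes higher and 6.09% lower in vDG, and in cKO 8.56% higher and 8.47% lower. The median log2 fold change of the 9 genes was -0.50 in WT and -0.55 in cKO, against -0.01 and 0.01 over all genes tested. These comparisons use the same vDG inputs as the comparison with the IP, so a low input level enters both with opposite signs, and the comparisons of cKO with WT use the same libraries once more.

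*Dsp* differed most. The dDG inputs had 236, 234 and 182 CPM in WT and 143 and 209 CPM in cKO, and the vDG inputs 83.9, 87.1 and 44.5 CPM in WT and 31.5 and 44.1 CPM in cKO. The regions did not overlap, and the lowest dDG library was 143 CPM against 87.1 CPM in the highest vDG input. The log2 fold change was -1.58 (SE 0.19, FDR = 2.09e-05) in WT and -2.23 (SE 0.17, FDR = 1.21e-08) in cKO.

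*Stxbp6* and *Prox1* differed by nearly the same amount in both genotypes. *Stxbp6* had 848, 944 and 932 CPM in the WT dDG and 523, 561 and 509 CPM in the WT vDG, with 1001 and 983 CPM against 572 and 599.8 CPM in cKO. All 5 dDG libraries were above all 5 vDG inputs. Its log2 fold change was -0.76 (SE 0.10, FDR = 6.22e-05) in WT and -0.77 (SE 0.11, FDR = 2.86e-05) in cKO. *Prox1* had 956, 896 and 1008 CPM against 645, 727 and 623 CPM in WT, and 1039.9 and 986 CPM against 704 and 690.0 CPM in cKO, again without overlap. Its log2 fold change was -0.50 (SE 0.11, FDR = 0.00305) and -0.55 (SE 0.11, FDR = 0.000987).

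*C1ql2* had 77.4, 66.4 and 75.3 CPM in the WT dDG against 43.3, 54.4 and 51.0 CPM in the vDG (log2 -0.55, SE 0.12, FDR = 0.00480). In cKO it had 57.1 and 53.9 CPM against 43.2 and 37.2 CPM (log2 -0.47, SE 0.12, FDR = 0.0109). Regions were separate within each genotype, though the lower cKO dDG library (53.9 CPM) was below the highest WT vDG input (54.4 CPM). Without cKO vDG input replicate 2 the cKO difference was not called (FDR = 0.0785).

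*Nrgn* and *Actn2* were called in WT only. *Nrgn* had 1328, 1372 and 1834 CPM in the WT dDG and 638, 798 and 1057 CPM in the vDG (log2 -0.85, SE 0.16, FDR = 0.00125). The cKO values overlapped, at 1240.3 and 866 CPM in the dDG and 1061 and 921 CPM in the vDG (log2 -0.10, SE 0.13, FDR = 0.680). *Actn2* was the one gene called higher in the vDG, with 6.85, 7.43 and 6.04 CPM against 5.02, 3.98 and 3.38 CPM in WT (log2 0.73, SE 0.21, FDR = 0.0225). Its cKO values overlapped, at 3.69 and 4.38 CPM in the vDG and 3.51 and 3.82 CPM in the dDG (log2 0.13, SE 0.26, FDR = 0.780). The *Actn2* call was lost without WT vDG input replicate 1 or 2 (FDR = 0.0544 and 0.0998) and without WT dDG input replicate 2 or 3 (FDR = 0.0749 and 0.0921).

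*Dock10* and *Tdo2* were called in cKO only. *Dock10* had 145 and 152 CPM in the cKO vDG and 269 and 336 CPM in the cKO dDG (log2 -1.03, SE 0.12, FDR = 3.83e-06). In WT it had 159, 238 and 180.1 CPM against 233, 239.7 and 250.2 CPM, where vDG input replicate 2 reached into the dDG range (log2 -0.31, SE 0.13, FDR = 0.129); without that library the gene was called (log2 -0.49, FDR = 0.00870). *Tdo2* had 12.5 and 14.9 CPM against 22.7 and 24.1 CPM in cKO (log2 -0.78, SE 0.16, FDR = 0.00125) and 14.7, 14.4 and 13.3 CPM against 17.7, 18.9 and 17.0 CPM in WT (log2 -0.32, SE 0.14, FDR = 0.136). *Calb1* was the most even along the axis, with 224 to 235 CPM in the WT vDG and 223 to 283 CPM in the WT dDG, and 222 and 238 CPM against 228 and 216 CPM in cKO. Its log2 fold change was -0.09 (SE 0.11, FDR = 0.658) in WT and 0.04 (SE 0.11, FDR = 0.850) in cKO.

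All vDG inputs lay below all dDG inputs for 6 of the 9 genes in each genotype, against 14.1% of all genes in WT and 28.4% in cKO, and above them for 1 gene in WT, against 17.3%. The interaction of genotype and region called 0 of the 9 genes, as it called 0% of all genes (edgeR, 16306 genes; 2010 had an unadjusted p under 0.05). With 1 library left out, the latter count ran from 780 without cKO dDG replicate 2 to 2220, with 1224 without cKO vDG replicate 1, and 12 genes were called higher and 17 lower without WT dDG replicate 3, 2 and 46 without cKO dDG replicate 1, 1 and 9 without WT vDG replicate 3, 0 and 4 without cKO vDG replicate 2, and 1 and 0 without WT dDG replicate 1. Of the 9 genes, 3 had such a p: *Dock10* (log2 -0.72, SE 0.20, FDR = 0.174), *Nrgn* (log2 0.75, SE 0.26, FDR = 0.241) and *Tdo2* (log2 -0.46, SE 0.20, FDR = 0.367). DESeq2 called *Dock10* (log2 -0.73, FDR = 0.035), the fit without the filter on low counts called *Nrgn* (FDR = 0.00269), *Dock10* (FDR = 0.00674) and *Dsp* (FDR = 0.0283), and the fit with the replicate numbers of the titles as a block called *Nrgn* (log2 0.78, FDR = 0.026) among 50 genes higher and 98 lower of 16306. With the other numbering of the cKO dDG libraries, 2 and 3, that block fit called no gene, with 657 at an unadjusted p under 0.05 (*Nrgn*, log2 0.43, FDR = 0.998).

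**Figure D4:**
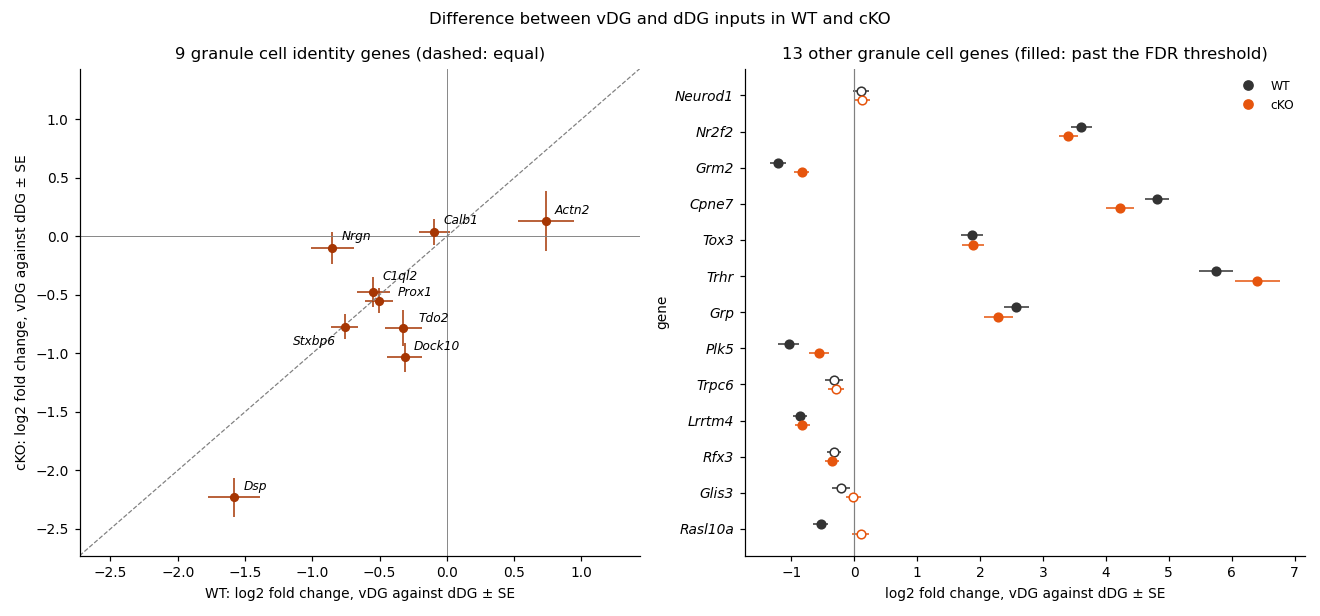
Log2 fold change of vDG against dDG inputs with its SE: left, the 9 genes with WT on the horizontal and cKO on the vertical axis; right, 13 other granule cell genes with WT in grey and cKO in orange, filled where called. *Prox1*, *C1ql2* and *Stxbp6* lie near the line of equal change, *Dock10*, *Dsp*, *Actn2* and *Tdo2* below it and *Nrgn* above it.

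Markers of other cells also differed between the regions. The summed mossy cell markers were 101 to 130.4 CPM in the vDG inputs and 30.7 to 35.6 CPM in the dDG inputs, and 2 of 5 tested were called higher in the vDG in each genotype. Choroid plexus markers ranged from 32.7 to 150 CPM in the WT dDG inputs, 18.5 to 24.0 CPM in the cKO dDG inputs and 23.4 to 36.2 CPM in the vDG inputs, with 2 of 4 tested called lower in the vDG in WT and 1 of 3 called higher in cKO. Interneuron markers were called higher in the vDG for 4 of 10 in WT and 3 of 10 in cKO, with sums of 475 to 558 CPM against 324 to 394 CPM in WT and 406 to 419 CPM against 343 to 364 CPM in cKO. Of 8 CA pyramidal cell markers 3 were higher and 1 lower in WT, and 4 higher and 1 lower in cKO, with sums of 91.1 to 107 CPM in the vDG inputs and 70.8 to 79.0 CPM in the dDG inputs. Of 7 oligodendrocyte markers 3 were lower in the vDG in WT and 1 in cKO. Of 6 astrocyte markers 2 were higher in WT, where the sums were 623 to 711 CPM in the vDG and 559 to 562 CPM in the dDG, and 1 was higher and 1 lower in cKO, with overlapping sums. Of the markers of progenitors and immature neurons 1 of 4 tested was higher in WT and 2 of 5 were lower in cKO. No microglia or vascular marker was called in either genotype. Their part in the regional differences of the granule cell genes was not tested. Calls for *Prox1*, *Dsp*, *Stxbp6*, *C1ql2* and *Nrgn* in WT held with each of the 3 WT dDG inputs left out in turn.

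The 13 other granule cell genes split by region. Of 7 that the study had listed for granule cells of the vDG, 5 were called higher in the vDG in both genotypes (*Nr2f2*, *Cpne7*, *Tox3*, *Trhr* and *Grp*), *Grm2* was called lower in both and *Neurod1* was not called (log2 0.11 in WT and 0.13 in cKO); that list is not independent of these samples. *Cpne7* differed by a log2 fold change of 4.81 (SE 0.19) in WT and 4.23 (SE 0.22) in cKO, and *Nr2f2* by 3.61 (SE 0.17) and 3.40 (SE 0.16). Of 6 general markers, 3 were called lower and none higher in each genotype. *Lrrtm4*, a synaptic adhesion gene, had -0.86 (SE 0.11) and -0.83 (SE 0.12), and *Plk5* -1.04 (SE 0.17) and -0.56 (SE 0.16). *Grm2* had -1.21 (SE 0.12) and -0.83 (SE 0.12). Of 56 tested partner genes, 10 were higher and 7 lower in WT, and 6 higher and 11 lower in cKO. Beside *Prox1*, the transcription factor genes *Neurod2* (log2 -1.18 and -0.72), *Bcl11b* (log2 -0.92 and -0.81) and *Zbtb20* (log2 -0.53 and -0.72) were lower in the vDG, 3 of 7 in each genotype. Beside *Dsp*, the plakin gene *Ppl* was lower (log2 -1.13 and -1.84) and the desmosomal plakophilin gene *Pkp2* was called higher in WT (log2 0.57, SE 0.15). *Camk2b* (log2 -0.52 and -0.48) and *Ppp3ca* (log2 -0.51 and -0.92) were lower, and *Gap43* was higher (log2 1.24 and 1.07). Beside *Stxbp6*, the SNARE gene *Stx1a* was higher in both (log2 0.90 and 1.12).

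The comparison of cKO with WT asks whether these genes differed where *Htr4* was targeted. Counts over *Htr4* itself were higher in every cKO library than in every WT library of the same kind. It was called higher in the IP (log2 0.93, FDR = 0.0705, threshold 0.1) and the vDG input (log2 0.86, FDR = 0.00644, threshold 0.05). In the dDG input it was not called at the threshold of 0.05 (log2 0.75, FDR = 0.0978). The interaction of genotype and region did not call *Htr4* (log2 0.09, SE 0.22, FDR = 0.919). In the vDG IP none of the 9 was called (edgeR; 1 had an unadjusted p under 0.05, as did 1674 of all 14300 genes; DESeq2 also called 0), where 0.0699% of all genes were called higher and 0.350% lower. These shares, 10 and 50 genes, rested on single libraries: 0 and 0 were called without WT replicate 2 or cKO replicate 1, 0 and 4 without cKO replicate 2, 35 and 149 without WT replicate 1, and 31 and 96 without WT replicate 3. The lowest FDR was 0.400, for *Stxbp6*, with 656 and 660.0 CPM in cKO and 554, 568 and 550.3 CPM in WT (log2 0.28, SE 0.12). *Calb1* (log2 0.27, SE 0.13, FDR = 0.443) and *Tdo2* (log2 0.37, SE 0.17, FDR = 0.438) also had both cKO libraries above all WT libraries, and *C1ql2* had both below (log2 -0.24, SE 0.14, FDR = 0.538). Among all genes tested 14.9% were so placed above and 16.2% below. The log2 fold changes of the 9 ran from -0.31 (*Dsp*, SE 0.19) to 0.37, with a median of 0.16 against 0.00 over all genes tested. Of the markers of other cells 1 was called, the interneuron gene *Gad2*, lower in cKO (log2 -0.91, FDR = 0.0618). The interneuron sum was 134 to 146 CPM in cKO against 181 to 218 CPM in WT, and the astrocyte sum 69.7 to 82.0 CPM against 87.9 to 119 CPM.

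In the vDG input 1 of the 9 was called, *Dsp*, which was lower in cKO; 2.33% of all genes were called lower and 0.108% higher. These 368 and 17 genes became 4 and 2 without cKO replicate 1, 45 and 5 without cKO replicate 2, and 210 to 587 and 12 to 51 with 1 WT library left out. *Dsp* had 31.5 and 44.1 CPM in cKO and 83.9, 87.1 and 44.5 CPM in WT. Both cKO libraries were below the WT libraries, but WT replicate 3 was only just above the higher of them. The log2 fold change was -0.94 (SE 0.21, FDR = 0.0156), a 0.522-fold level. The call was not kept by DESeq2 (FDR = 0.223), by a fit of all 6 groups (FDR = 0.0798), or without WT replicate 2 (FDR = 0.0644), cKO replicate 1 (FDR = 0.360) or cKO replicate 2 (FDR = 0.05, above the threshold before rounding). *Actn2* came next, with 3.69 and 4.38 CPM against 6.85, 7.43 and 6.04 CPM and no overlap (log2 -0.76, SE 0.22, FDR = 0.0683); DESeq2 called it (FDR = 0.0453). *Dock10* had 145 and 152 CPM in cKO and 159 to 238 CPM in WT, also without overlap (log2 -0.38, SE 0.15, FDR = 0.194), and without WT replicate 1 it was called (FDR = 0.0379). *C1ql2* was the fourth gene with both cKO libraries below all WT libraries (log2 -0.31, SE 0.14, FDR = 0.294), and *Stxbp6* was the one gene with both above (log2 0.13, SE 0.12, FDR = 0.657); 18.1% and 14.6% of all genes were so placed. *Prox1* (log2 0.06, SE 0.12) and *Calb1* (log2 -0.01, SE 0.12) had fitted changes below their SE. The median of the 9 was -0.06, against 0.01 over all genes tested. Markers of other cells also moved with genotype here. Of 6 astrocyte markers 2 were called lower in cKO, and their sum was 541 to 579 CPM in cKO against 623 to 711 CPM in WT. None of 10 interneuron markers was called, but 6 had an unadjusted p under 0.05, and their sum was 406 to 419 CPM in cKO against 475 to 558 CPM in WT, also without overlap. The CA pyramidal cell sum was higher in cKO, 106 to 107 CPM against 91.1 to 98.4 CPM, with none of the 8 markers called. The choroid plexus marker *Ttr* was called higher (log2 1.11, FDR = 0.0372), with overlapping groups, and no marker of the remaining cell types was called. The part of these markers in the change of *Dsp* was not tested.

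In the dDG input none of the 9 was called (edgeR; 4 had an unadjusted p under 0.05, as did 1881 of all 15383 genes; DESeq2 also called 0), with 0.00650% of all genes called higher and 0.0260% lower. These 1 and 4 genes became 67 and 63 without WT replicate 3, 11 and 18 without WT replicate 1, 0 and 1 without WT replicate 2, and 0 and 0 without either cKO library. *C1ql2* had 57.1 and 53.9 CPM in cKO and 77.4, 66.4 and 75.3 CPM in WT (log2 -0.40, SE 0.12, FDR = 0.196). *Nrgn* had 1240.3 and 866 CPM in cKO and 1328, 1372 and 1834 CPM in WT (log2 -0.52, SE 0.16, FDR = 0.202). Without the filter on low counts *Nrgn* was called (FDR = 0.000327). It was also called with a block on the other numbering of the cKO dDG libraries, chosen after seeing the data. Both cKO libraries were below all WT libraries for these genes. *Tdo2* (22.7 and 24.1 CPM against 17.7, 18.9 and 17.0 CPM; log2 0.39, SE 0.14, FDR = 0.254), *Dock10* (269 and 336 CPM against 233 to 250.2 CPM; log2 0.33, SE 0.11, FDR = 0.246) and *Stxbp6* (log2 0.13, SE 0.10) had both cKO libraries above. Over all genes tested, 14.0% had both cKO libraries above and 15.5% below. *C1ql2*, *Actn2* and *Dsp* had log2 fold changes below 0 in each of the 3 comparisons of cKO with WT, and *Prox1* and *Stxbp6* had them above 0 in each. The share of all genes with the same sign in all 3 was not computed. *C1ql2*, *Actn2*, *Prox1* and *Stxbp6* were called in none of the 3. *Actn2* was called in the vDG input without the filter on low counts (FDR = 0.0429) and by DESeq2 (FDR = 0.0453). No marker of another cell type was called in the dDG input, where the sums of astrocytes (486 to 542 CPM in cKO, 559 to 562 CPM in WT), oligodendrocytes (431 to 439 CPM, 441 to 465 CPM), microglia (22.8 to 23.4 CPM, 26.3 to 47.5 CPM) and choroid plexus (18.5 to 24.0 CPM, 32.7 to 150 CPM) did not overlap. Of the 13 other granule cell genes and the partners, 0 were called in any of the 3 comparisons by edgeR.

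**Figure D5:**
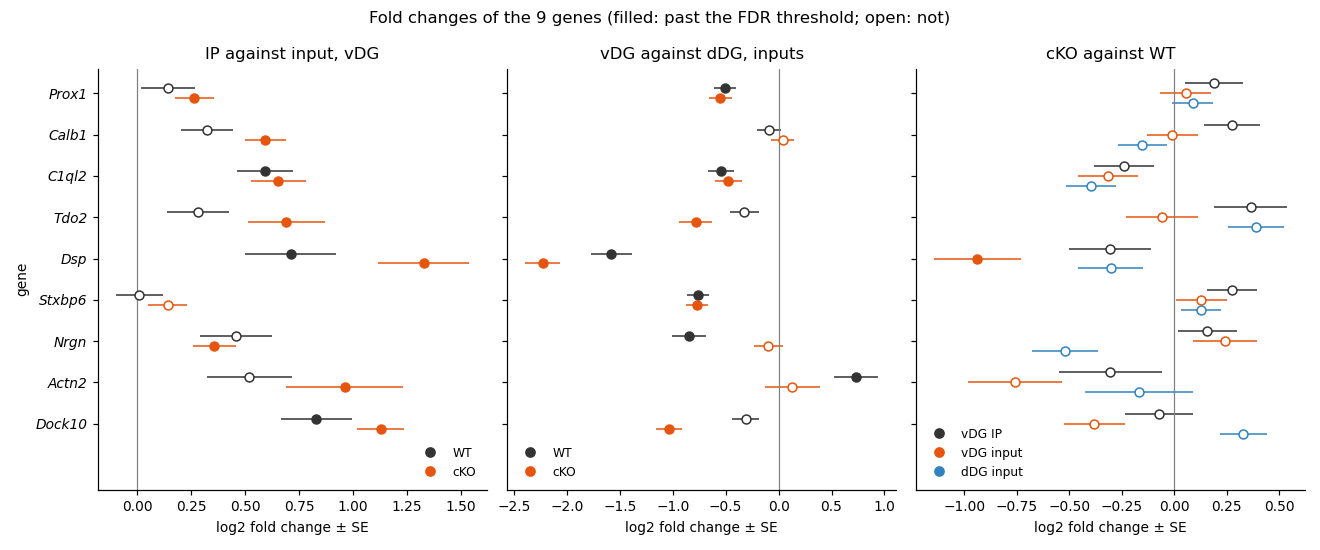
Log2 fold change with its SE for the 9 genes: IP against input in vDG (left), vDG against dDG inputs (middle) and cKO against WT (right); filled points passed the FDR threshold and open points did not. Points lie to the right of 0 for IP against input, mostly to its left for vDG against dDG, and on both sides for cKO against WT, where *Dsp* in the vDG input is the one filled point.

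The genes with the most similar profile over the 15 libraries were looked up for *Dsp* and *Actn2*, the 2 of the 9 with the widest range of group means, by the root mean square difference of log2 CPM after centring each gene, among 10371 genes with a mean of at least 5 CPM. For *Dsp*, whose own root mean square deviation was 0.87, the nearest were *Fstl4* (0.36), *Syn3* (0.40) and *Inf2* (0.43). For *Actn2* (0.58) they were *Pcdh19* (0.19), *Nos1* (0.19) and *Acsl4* (0.20). None of the 9 genes was among these neighbours.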

How the data were processed

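Libraries were made from TRAP IP and input RNA with the NuGEN Ovation V2 kit and TruSeq adapters. The authors deposited raw counts per gene and library, made per the labels with STAR 2.4.2a on mm10 and HTSeq (FastQC 0.11.4, SAMtools 0.1.19-444); DESeq2 1.4.5 is also named in the submitters' processing notes. The 5 deposited tables of the authors' own comparisons, with fold changes and p-values, were not used. Rows for reads on no gene were left out.

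Each comparison was fitted with edgeR 4.0.16 (limma 3.58.1, R 4.3.3) on the counts of its libraries: filterByExpr, TMM, quasi-likelihood F-test, Benjamini-Hochberg adjustment over all genes tested, and a threshold of 0.05, or 0.1 for cKO against WT in the IP. The SE is the log2 fold change divided by the root of F. The edgeR fits of the 7 comparisons between groups were run on simulated counts with known changes; the interactions were not. Alternatives were DESeq2 1.42.0, other scalings, filters and thresholds, all 6 groups in one fit, the replicate block, and each library left out. Lengths came from GENCODE M21. Named genes were the 9 members in every comparison, with list genes as examples of called members. The members, the lists of other granule cell genes, partners and cell type markers, and the tests were chosen with earlier results of these data known, and some list genes were labelled by the study on these samples. With 2 or 3 libraries a group, an exact permutation test could not go below p = 0.1. The genes nearest in profile were looked up for the 3 members with the widest range of group means; those of *Dock10* are not reported here.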

Additional observations from a re-analysis of the deposited data

How the results depend on the processing

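The number of the 9 genes called between IP and input in WT was 3, and 5 with DESeq2, 6 without the filter on low counts, 6 with all 6 groups in one fit, 6 at an FDR of 0.1, 2 with library size alone, and 3 to 5 with each library left out. In cKO it was 8, and 6 with library size alone, 6 with all 6 groups in one fit, where *Prox1* (FDR = 0.0753) and *Nrgn* (FDR = 0.153) lost their calls, 7 with at least 10 counts, where *Prox1* did (FDR = 0.0985), and 5 to 7 with each library left out. For cKO against WT in the vDG input it was 1, and 2 without the filter, 0 with all 6 groups in one fit, 2 at an FDR of 0.1 and 0 to 2 with each library left out; in the dDG input it was 0, and 1 without the filter (*Nrgn*). For the interaction of genotype and region it was 0, and 1 with DESeq2 (*Dock10*) and 3 without the filter. The causes were not tested. The counts between vDG and dDG stayed at 6 under each setting in both genotypes, and at 5 to 6 with a library left out.

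Inputs came from homogenates before purification, but no source used here ties the replicate numbers of IP and input to the same homogenate, and the numbers were not taken as pairs. Deviations from the group means of same-numbered libraries correlated at 0.44, -0.12 and -0.28 for WT IP and input, 0.44 for cKO IP and input, 0.38, -0.08 and 0.24 for WT vDG and dDG, 0.11 for cKO vDG and dDG, and -0.17 to -0.02 for cKO and WT. With the replicate block, 3 members were called between IP and input in WT and 8 in cKO, as without it. The interaction of genotype and region then called 1 of the 9, *Nrgn*, and 50 genes higher and 98 lower over all genes, against 0 without the block, and *Dock10* for cKO against WT in the IP had a log2 fold change of 0.071 in place of -0.07. The titles number the cKO dDG libraries 1 and 2, but the deposited counts carry the numbers 2 and 3. A block on the latter, chosen after seeing the data, called 0 members in the region interaction, where *C1ql2* turned to -0.071 and *Stxbp6* to 0.017, and 1 for cKO against WT in the dDG input, *Nrgn* (log2 -0.61, FDR = 9.84e-06), where *Actn2* turned to 0.0027 and 252 genes were higher and 410 lower, against 62 and 75 with the title numbers and 1 and 4 without a block. For cKO against WT such a block pairs libraries of different mice by number alone, and it left few residual degrees of freedom. Without a block *Nrgn* was not called in the dDG input (edgeR, FDR = 0.202). The block on the numbers 2 and 3 left no residual degrees of freedom for vDG against dDG in cKO and was not run there. Over all genes the block raised the calls between IP and input in cKO from 1790 higher and 2377 lower to 2736 and 2978.

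Scaling by library size alone turned *Stxbp6* between IP and input to -0.12 in WT and -0.028 in cKO, *Calb1* for cKO against WT in the vDG input to 0.012, and *Stxbp6* in the region interaction to 0.033. At least 10 counts in every library turned *Stxbp6* between IP and input in WT to -0.038. Under library size alone, 487 genes were higher and 3022 lower in the WT IP, against 1160 and 2422, 751 and 3230 in the cKO IP, against 1790 and 2377, and 1778 and 943 in the cKO vDG, against 1328 and 1314. For cKO against WT, DESeq2 called 76 genes higher and 277 lower in the IP, against 10 and 50, 33 and 572 in the vDG input, against 17 and 368, and 84 and 105 in the dDG input, against 1 and 4. It called 62 and 188 in the region interaction, against 0.

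With 1 library left out, the genes called higher and lower were 588 to 1584 and 1843 to 2641 in the WT IP, lowest without input replicate 1, 1059 to 1946 and 1193 to 2685 in the cKO IP, also lowest without input replicate 1, 1033 to 1304 and 620 to 892 between vDG and dDG in WT, lowest without dDG replicate 2, and 794 to 1540 and 634 to 1544 between vDG and dDG in cKO, lowest without dDG replicate 2. Uncalled fold changes of the 9 crossed 0 in these ranges. Between IP and input in WT, *Stxbp6* ran from -0.014 to 0.047. Between vDG and dDG, *Calb1* ran from -0.17 to 0.014 in WT and -0.022 to 0.074 in cKO, and in cKO *Actn2* from -0.010 to 0.24 and *Nrgn* from -0.33 to 0.17. For cKO against WT, *Dock10* ran from -0.21 to 0.066 and *Dsp* from -0.72 to 0.0020 in the IP, *Calb1* from -0.066 to 0.046 and *Tdo2* from -0.20 to 0.071 in the vDG input, and *Actn2* from -0.30 to 0.0025 in the dDG input. In the fraction interaction *Prox1* ran from -0.016 to 0.20, *C1ql2* from -0.053 to 0.19 and *Nrgn* from -0.28 to 0.080, and in the region interaction *C1ql2* from -0.047 to 0.17, *Prox1* from -0.093 to 0.048 and *Stxbp6* from -0.049 to 0.055. Of 1062 fold changes recomputed for the 9 genes, 979 kept direction and side of the threshold, 28 lost and 23 gained the call, and 32 changed sign.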
